A study of Mus musculus with 2 samples.

Results

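Cd69 and Cd44 encode surface proteins by which activated T cells are recognised. Their loci held 47 accessible regions out of 84666 in the whole data set, after the peaks of 2 ATAC-seq libraries had been merged. The members were all peaks that overlapped either gene body or the 50 kb on each side of it. This gave 22 peaks in replicate 1 and 21 in replicate 2 at Cd69, which merged to 23 regions, and 22 and 19 peaks at Cd44, which merged to 24 regions. ATAC-seq maps open chromatin with a transposase that inserts adapters where DNA is free of tightly bound nucleosomes. Both libraries were made from primary T cells of C57BL/6NJ mice and formed 1 group with no treatment or genotype contrast, labelled as biological replicates 1 and 2. The labels give both the same donor record, leave age unknown and sex uncollected, and name the cells only as T cells, with a link to a CD4+ T-cell differentiation protocol that was not used here. Each peak is named with ASTARR.insert, Th0 and 72hrs, terms that the labels leave unexplained. The labels call the assay ATAC-seq, but whether the reads came straight from cells or from inserts of a reporter library cannot be told from these files, and this bears on every signal value below. With 1 group and 2 libraries no comparison between conditions and no test was possible, and the depth behind the peaks is unknown.

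CD69 is a C-type lectin that appears on the surface soon after a T cell is stimulated through its antigen receptor. It binds the sphingosine 1-phosphate receptor S1PR1 and takes it off the surface, which holds cells in lymphoid organs and tissues. CD44 is the main receptor for the matrix sugar hyaluronan, and stays high on T cells that have met antigen. Its transcript is known for a run of variant exons that can be spliced in or out.

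The letters under the main regions are given here, since the location and content of these elements are what the data describe. They are the promoter sequence upstream of each gene's 5′ end that lay inside the peak (up to 250 bases), the 300 bases around the summits of 2 strong distal regions of each gene, and 1 region from a block downstream of Cd69. All are from the RefSeq copy of the GRCm38 assembly, which has the coordinates of mm10, and are written 5′ to 3′ on the minus strand, the strand of both genes. Capitals mark every match, on either strand, of the 17 sets of transcription factor letters that were searched.
Cd69 promoter (chr6:129275437-129275686, minus strand): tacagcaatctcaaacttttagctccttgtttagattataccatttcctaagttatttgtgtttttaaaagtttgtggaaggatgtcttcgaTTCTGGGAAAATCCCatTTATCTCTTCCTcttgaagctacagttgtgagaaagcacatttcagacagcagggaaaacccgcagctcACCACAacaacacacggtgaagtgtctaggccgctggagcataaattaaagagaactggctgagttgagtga
Cd69 upstream, 29.0 kb (chr6:129304281-129304580, minus strand): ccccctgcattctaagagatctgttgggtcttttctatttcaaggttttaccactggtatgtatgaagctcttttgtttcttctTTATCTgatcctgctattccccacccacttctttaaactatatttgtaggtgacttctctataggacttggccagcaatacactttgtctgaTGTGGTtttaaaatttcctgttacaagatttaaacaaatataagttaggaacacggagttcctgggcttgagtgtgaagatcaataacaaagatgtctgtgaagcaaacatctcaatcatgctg
Cd69 upstream, 37.3 kb (chr6:129312547-129312846, minus strand): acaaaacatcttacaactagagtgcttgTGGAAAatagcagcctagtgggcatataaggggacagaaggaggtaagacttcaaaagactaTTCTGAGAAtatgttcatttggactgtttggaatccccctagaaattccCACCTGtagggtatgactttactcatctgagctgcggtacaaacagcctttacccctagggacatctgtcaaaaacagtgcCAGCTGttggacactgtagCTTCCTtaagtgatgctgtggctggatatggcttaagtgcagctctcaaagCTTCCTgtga
Cd69 downstream, 37.2 kb (chr6:129238054-129238353, minus strand): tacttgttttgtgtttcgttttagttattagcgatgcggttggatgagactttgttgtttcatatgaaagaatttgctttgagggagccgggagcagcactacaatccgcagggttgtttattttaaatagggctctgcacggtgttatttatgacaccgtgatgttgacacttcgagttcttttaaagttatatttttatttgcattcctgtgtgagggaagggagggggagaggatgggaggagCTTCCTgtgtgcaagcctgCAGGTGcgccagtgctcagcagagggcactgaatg
Cd44 promoter (chr2:102901666-102901777, minus strand): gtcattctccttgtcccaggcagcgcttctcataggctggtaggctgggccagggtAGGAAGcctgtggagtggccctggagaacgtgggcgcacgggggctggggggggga
Cd44 upstream, 47.0 kb (chr2:102948496-102948795, minus strand): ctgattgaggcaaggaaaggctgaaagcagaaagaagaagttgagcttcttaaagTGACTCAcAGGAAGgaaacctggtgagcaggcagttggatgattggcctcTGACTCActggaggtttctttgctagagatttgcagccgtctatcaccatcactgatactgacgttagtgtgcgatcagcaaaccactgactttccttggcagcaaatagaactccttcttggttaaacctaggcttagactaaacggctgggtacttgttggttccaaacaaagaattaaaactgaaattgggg
Cd44 intron 14 (chr2:102831590-102831889, minus strand): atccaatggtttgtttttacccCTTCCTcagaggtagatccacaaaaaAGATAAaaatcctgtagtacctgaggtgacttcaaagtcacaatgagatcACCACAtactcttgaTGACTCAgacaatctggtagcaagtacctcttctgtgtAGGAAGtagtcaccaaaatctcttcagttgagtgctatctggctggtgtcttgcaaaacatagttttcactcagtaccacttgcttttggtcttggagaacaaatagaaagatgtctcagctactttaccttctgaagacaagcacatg

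Each gene had a single promoter region, and both libraries held it. A promoter region is one whose summit, the point of strongest signal, lies within 1000 bp of the start of a protein-coding transcript. By this measure 62.8% of 21853 protein-coding genes had a promoter region in both libraries. The Cd69 region, chr6:129274631-129276118, had a signal value of 7.54 in replicate 1 and 6.70 in replicate 2, and its summit fell on the gene's annotated 5′ end in both. The Cd44 region, chr2:102900553-102901777, had 9.56 in replicate 1 and 8.88 in replicate 2, with its summit in exon 1, 145 bp from the gene's 5′ end, in both libraries. The signal value is the authors' ratio for each peak, read here as fold enrichment over local background. As means these were 7.12 ± 0.597 for Cd69 and 9.22 ± 0.480 for Cd44 (SD, n = 2 libraries). Both values of Cd44 lay above both values of Cd69, and both means lay below the median of 11.2 for genes with a promoter region. The Cd69 promoter was stronger than that of 18.6% of such genes and the Cd44 promoter stronger than 33.1%.

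The confidence of the Cd69 promoter was high for its signal. Its −log10 q, the caller's own measure of significance after correction, was 209 in replicate 1 and 130 in replicate 2. The 2000 regions closest to it in signal had a median of 33.8 in replicate 1 and 17.04 in replicate 2. The Cd44 promoter had a −log10 q of 147 and 103, against 55.3 and 37.8 for regions of like signal. Neither promoter was rich in CpG dinucleotides. In the 300 bp around the summit the observed over expected CpG ratio was 0.408 at Cd69 and 0.482 at Cd44, while the median of 14013 shared promoter regions was 0.789. Their GC content was 48.0% and 58.0%, and the median of all was 64.3%.

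**Figure D1:**
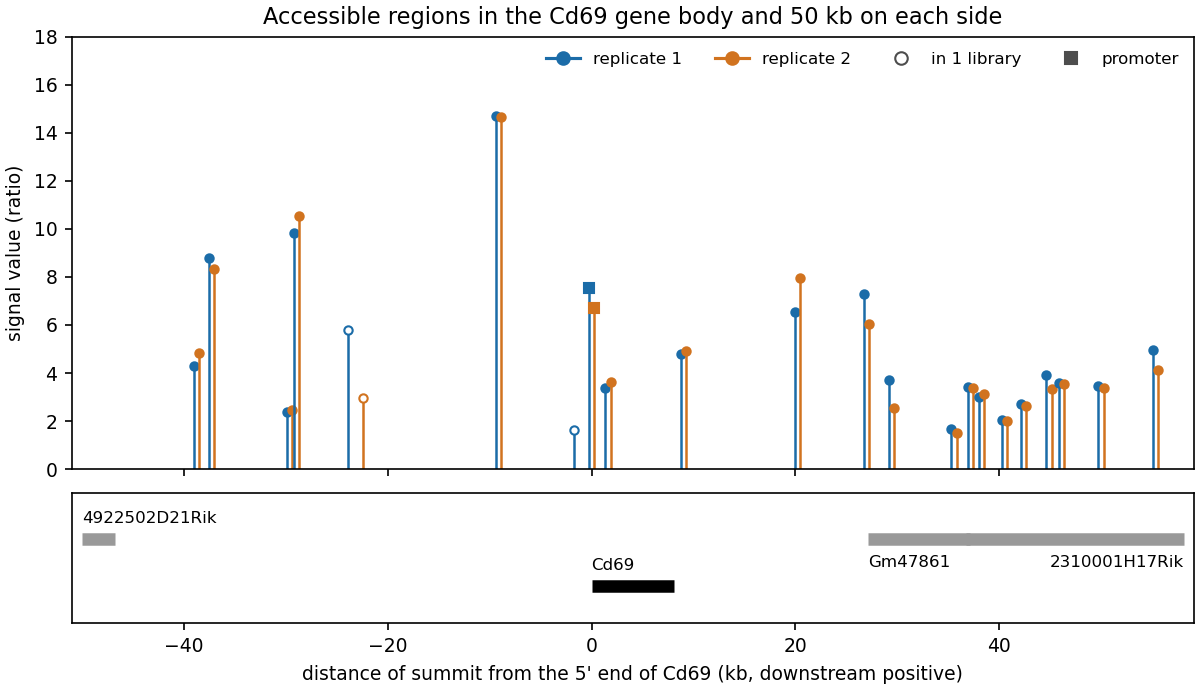
Signal value (a ratio, vertical axis) of each accessible region at Cd69 against the distance of its summit from the gene's 5′ end in kb, for replicate 1 (blue) and replicate 2 (orange); gene bodies are drawn below, cut at the edges of the window. The region 9.16 kb upstream reaches 14.7 in both libraries, and the 8 regions inside 2310001H17Rik sit between 2.00 and 4.98.

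The Cd69 gene is short, 8.11 kb on chromosome 6 from 129267325 to 129275436, and most of its accessible regions lay outside it. Of 23 merged regions 20 were in both libraries, a share of 87.0%, where 79.0% of all merged regions were. Of these 20, 1 was the promoter region (21.0% of all shared regions were promoter regions) and 19 were distal: 5 upstream, 1 in intron 1 and 13 downstream. The strongest was 9.16 kb upstream. It had a signal of 14.7 in replicate 1 and 14.7 in replicate 2, with −log10 q of 439 and 335, and its summit was at the same base in both. Its signal exceeded that of the gene's own promoter in both libraries, and its mean was above 95.9% of the 52834 shared distal regions.

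Other upstream regions were also strong. The one 29.0 kb upstream, chr6:129303929-129304608, had 9.84 in replicate 1 and 10.5 in replicate 2, and its −log10 q was 63.2 and 51.2. The one 37.3 kb upstream, chr6:129312549-129313550, had 8.80 and 8.34, with −log10 q of 213 and 149. The remaining upstream regions in both libraries were weaker, at 4.31 and 4.85 for a neighbour 38.8 kb upstream and 2.38 and 2.45 for one 29.6 kb upstream. The nearest protein-coding start to the 4 regions from 29.0 to 38.8 kb upstream was that of 4922502D21Rik, not of Cd69. That gene overlaps the far end of the window, and its promoter region, 407 bp outside the window, had a signal of 6.97 in replicate 1 and 9.09 in replicate 2.

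Inside and just behind the gene the regions were of low signal. The intron 1 region, chr6:129273294-129274197, had 3.38 in replicate 1 and 3.63 in replicate 2, with −log10 q of 44.3 and 40.5. It lay 1.62 kb from the 5′ end and so would count as a promoter region at a distance of 2000 bp. The region at the 3′ end, chr6:129265492-129268024, was the widest of the locus at 2533 bp and had 4.81 and 4.90. Farther downstream, regions 20.2 and 27.0 kb from the 5′ end had signals of 6.56 and 7.95 and of 7.30 and 6.05. Weaker ones lay at 29.4 and 35.6 kb, both inside the long noncoding RNA gene Gm47861. Their signals were 3.70 and 2.53 and, for the weakest shared region of the locus, 1.67 and 1.51. The −log10 q of the first was 11.4 and 2.92, and that of the second 7.21 and 2.91. At 20.2 kb the region held the CTCF letters, the only such match within 150 bp of a summit among the shared regions of the locus, and the summits of the libraries were 1009 bp apart, the largest shift at either gene.

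From 37.2 to 55.3 kb downstream, 8 regions lay inside 2310001H17Rik, a long noncoding RNA gene from 129208412 to 129238725 on chromosome 6. Both libraries held all 8. They spanned 19.0 kb, of which 6.42 kb was covered. Their signals were low, from 2.06 to 4.98 in replicate 1 and from 2.00 to 4.14 in replicate 2. Their −log10 q was nonetheless high, from 23.7 to 83.6 in replicate 1 and from 15.9 to 62.7 in replicate 2. For regions of like signal the medians were from 3.11 to 12.6 in replicate 1 and from 2.10 to 6.89 in replicate 2. In 7 of the 8 the −log10 q was above that of 90% of regions of like signal in both libraries, while 10.4% of all shared regions were.

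The region over the starts of 2310001H17Rik and Gm47861 had a share of like regions below it that no other region of the locus exceeded. The 2 noncoding genes lie on opposite strands, and the summit was 72 bp from the start of Gm47861, at 129238276. At chr6:129237811-129238779, the region had a signal of 3.41 in replicate 1 and 3.39 in replicate 2. Its −log10 q was 80.8 and 62.7, above 99.8% of regions of like signal in each library. The same held in part for the rest of the Cd69 locus, where 6 of the other 12 shared regions passed that 90% mark in both libraries, and for none of the 17 shared regions of Cd44. Of those 17, 16 in replicate 1 and 14 in replicate 2 were above the median of regions of like signal. The share of all shared regions above that median was not counted, so these 2 counts have no background beside them. By mean signal all 8 regions inside 2310001H17Rik were among the weakest 25.5% of shared distal regions. Neither reads nor coverage tracks were used here, so what part the local read level has in this was not tested.

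**Figure D2:**
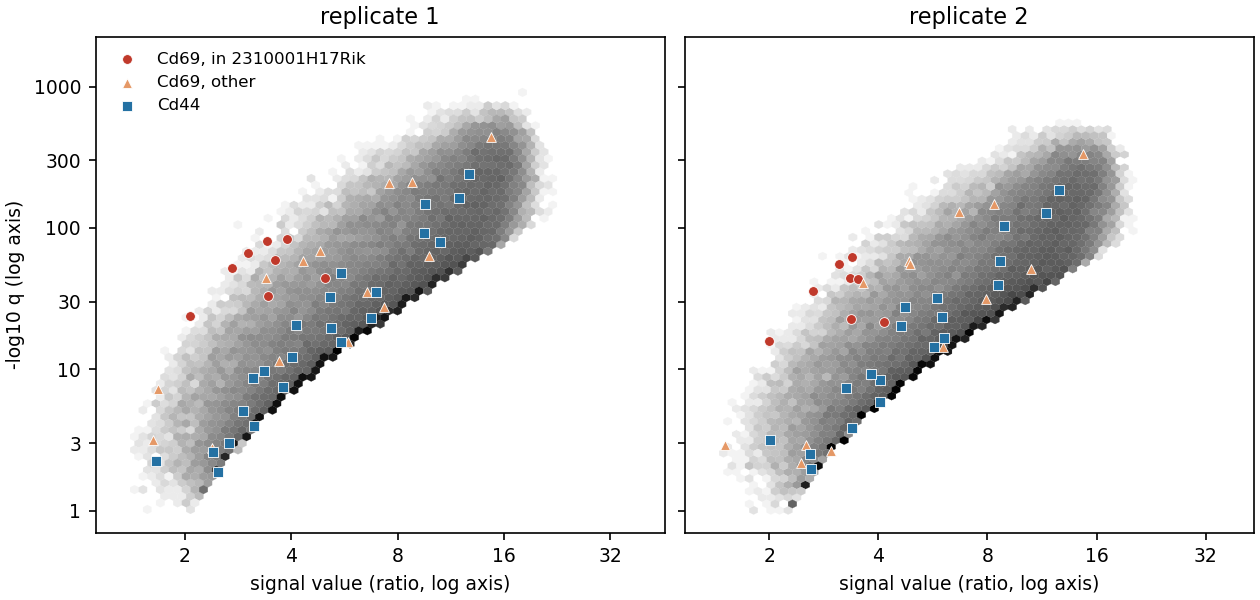
The −log10 q of each peak (vertical, log axis) against its signal value (a ratio, horizontal, log axis) in replicate 1 (left) and replicate 2 (right), with all peaks on the standard chromosomes in grey and darker where denser. Cd69 peaks inside 2310001H17Rik (red circles) lie in the upper part of the cloud, most of them near its upper edge, the other Cd69 peaks (orange triangles) range from its lower to its upper edge, and Cd44 peaks (blue squares) stay below the upper edge.

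The number of distal regions at Cd69 was high for a gene of its size. With 19, it had the most of the 2185 protein-coding genes of its length class, from 8.04 to 11.9 kb, counted the same way. The next gene had 18, and the class median was 4. The rank depends on what is counted. The 19 include regions inside 2310001H17Rik with summits 72, 749, 956 and 945 bp from an annotated noncoding start. With the starts of all annotated genes Cd69 had 15 distal regions, and the class was not counted that way. Among regions with a −log10 q of at least 5, Cd69 had 16 and 3 genes of the class, itself included, had that many or more. Among the 50000 strongest regions of each library by signal it had 5, and 17.3% of the class had that many or more. With flanks of 20 kb it also had 5, and 8.56% of the class had that many or more. In the gene body alone it had 2, and 5.40% of the class had that many or more. With flanks of 100 kb it had 29 and was again the only gene of the class with that many or more.

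Cd44 is a long gene, 90.5 kb on chromosome 2 from 102811141 to 102901665, and its regions were spread through it and both flanks. Of 24 merged regions 17 were in both libraries, a share of 70.8%, below the 79.0% of all merged regions. They were the promoter region and 16 distal regions: 3 upstream, 8 in the gene and 5 downstream. The strongest was 47.0 kb upstream at chr2:102947719-102949170. It had a signal of 12.7 in replicate 1 and 12.6 in replicate 2 and −log10 q of 241 and 186, which put its mean above 90.1% of shared distal regions. It was the region nearest the upstream edge of the window, and Cd44 was the gene with the nearest protein-coding start.

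The next strongest were inside the gene. The intron 4 region, which reaches into exon 5, had 11.9 in replicate 1 and 11.6 in replicate 2, with −log10 q of 163 and 127. The intron 14 region, chr2:102831491-102832167, which touches exon 15, had 10.6 and 8.55, with −log10 q of 78.9 and 39.7, so replicate 1 was the higher on both measures. A region 11.0 kb upstream, chr2:102912344-102913410, had 9.50 and 8.69. These 4 regions and the promoter all had a signal of 8.55 or more in both libraries, and no other Cd44 region exceeded 6.94 in either.

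Intron 1 of Cd44, 35.8 kb long, held 3 shared regions. Their signals were 5.52 and 4.75 at 6.71 kb from the 5′ end, 5.14 and 4.62 at 27.6 kb, and 4.12 and 5.80 at 33.8 kb, in replicate 1 and replicate 2. The last was the only one of the 3 that was higher in replicate 2. Exons 6 to 15 of the longest transcript, 10 of 19, are missing from at least 1 of 8 coding transcripts and make up the variant stretch. In these 17.5 kb there were 2 regions. The intron 14 region was in both libraries, and one in intron 11 was in replicate 1 alone, with a signal of 3.14. At the 3′ end, a region in exon 19 had 5.19 in replicate 1 and 4.05 in replicate 2.

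Downstream of Cd44 the window runs into Slc1a2, which encodes a glutamate transporter and points the other way. Of the 5 shared downstream regions, 3 lay inside Slc1a2. They had signals of 4.03 and 3.82, of 6.94 and 5.98, and of 5.53 and 6.09 in replicate 1 and replicate 2. For 7 of the 16 distal regions the nearest protein-coding start was that of Slc1a2, and for 9 it was that of Cd44. The Slc1a2 promoter, outside the window, was itself accessible at 8.20 in replicate 1 and 8.84 in replicate 2, as was that of Pdhx, the nearest protein-coding gene on the upstream side, at 16.1 and 14.9. Peaks show where chromatin is open and not which gene a distal region acts on.

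**Figure D3:**
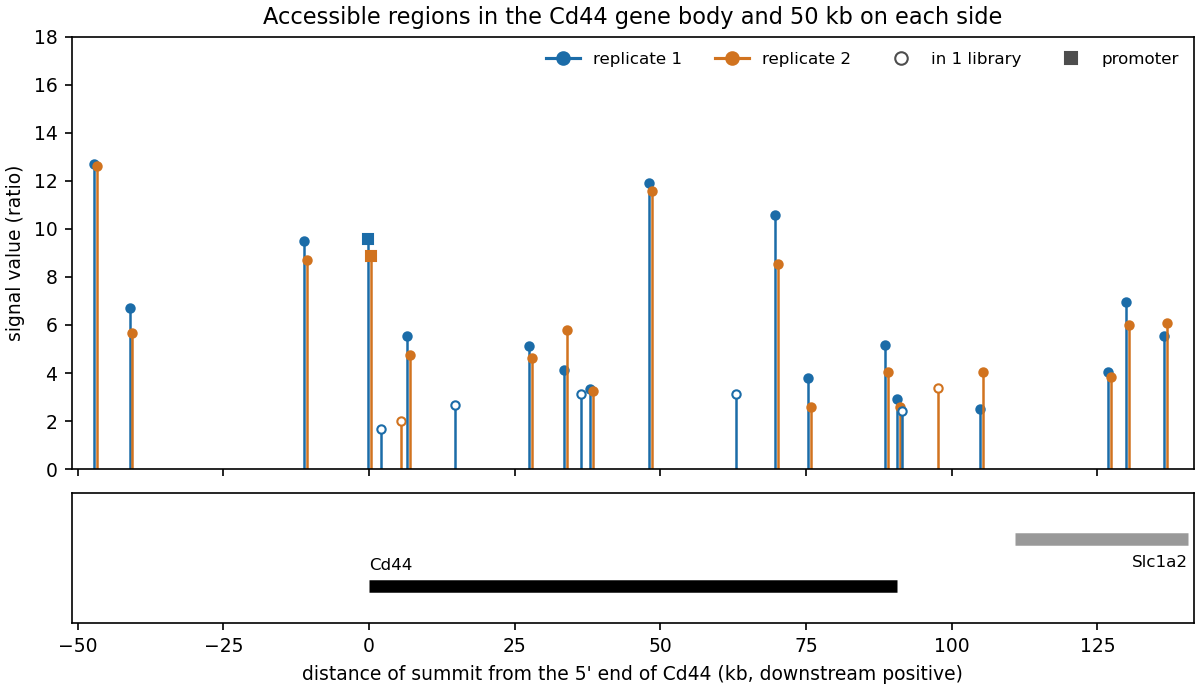
Signal value (a ratio, vertical axis) of each accessible region at Cd44 against the distance of its summit from the gene's 5′ end in kb, for replicate 1 (blue) and replicate 2 (orange); gene bodies are drawn below, cut at the edges of the window. The regions 47.0 kb upstream and in intron 4, at 48.2 kb, are the tallest, and all 7 regions found in 1 library (open circles) are at or below 3.40.

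With 16 distal regions, Cd44 stood less far from other long genes. In its length class, from 58.1 to 110.2 kb, the median of 2185 genes was 7, and 5.40% of them had 16 or more. Here too the share depends on what is counted. With flanks of 100 kb it had 30, and 0.778% of the class had that many or more. With flanks of 20 kb it had 11 (7.19%), in the gene body alone 8 (7.69%), and among regions with a −log10 q of at least 5 it had 13 (9.11%). Among the 50000 strongest regions of each library it had 7, and 24.9% had that many or more. Over all protein-coding genes, 1.42% had at least as many distal regions as Cd69 and 2.65% at least as many as Cd44. The median distal region was weak at both genes, with a mean signal of 3.55 at Cd69 and 5.05 at Cd44, where the median of all shared distal regions was 6.56. Only 5 of 19 distal regions at Cd69 and 4 of 16 at Cd44 were above that median, and 1 at each gene was above 90% of shared distal regions.

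**Figure D4:**
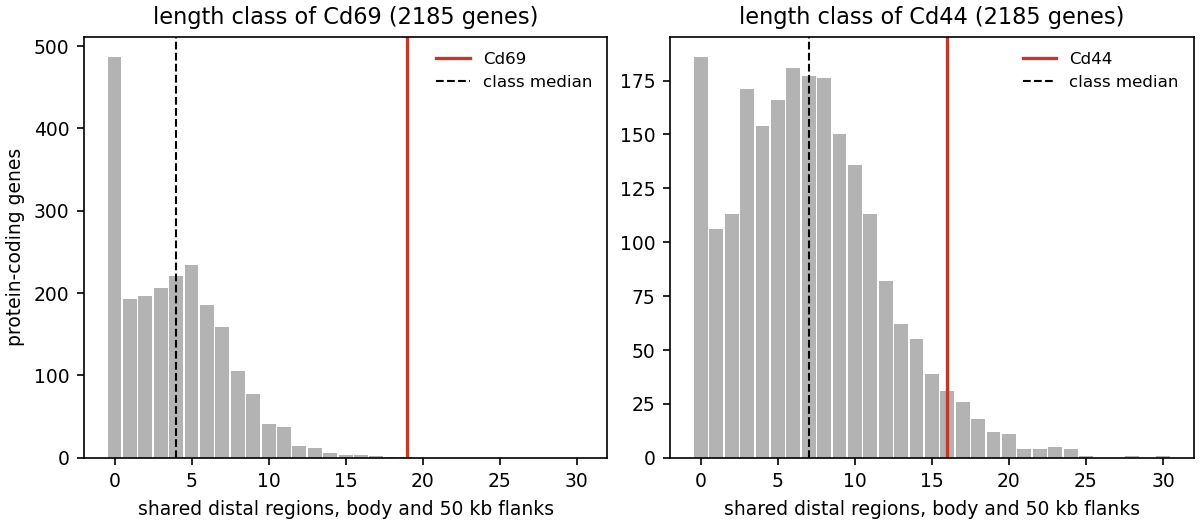
Number of protein-coding genes (vertical) by their count of shared distal regions in the gene body and 50 kb flanks (horizontal), for the length class of Cd69 (left) and of Cd44 (right), 2185 genes each. Cd69, at 19 (red line), lies beyond every other gene of its class, where the dashed median is 4; Cd44, at 16, lies in the upper tail around a median of 7.

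The libraries gave like values at both loci. Of the Cd69 peaks, 20 of 22 in replicate 1 overlapped a replicate 2 peak (90.9%), where 86.5% of all replicate 1 peaks did. In the other direction it was 20 of 21 (95.2%), against 90.3% of all. At Cd44 it was 17 of 22 (77.3%) and 17 of 19 (89.5%). The ratio of replicate 1 to replicate 2 signal in shared regions ran from 0.825 to 1.46 at Cd69, with a median of 1.02, and from 0.616 to 1.46 at Cd44, with a median of 1.09. Replicate 1 had the higher signal in 13 of 20 regions at Cd69 and 14 of 17 at Cd44, where it did in 62.7% of all. It had the higher −log10 q in 20 of 20 and in 14 of 17, where it did in 86.5% of all. Summits of the libraries were a median of 48 bp apart at Cd69 and 38 bp at Cd44.

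Regions found in a single library were mostly weak. At Cd69, replicate 1 alone held 2, and the one 23.6 kb upstream was the strongest such region at either gene, with a signal of 5.79. The other lay 1.49 kb upstream of the 5′ end with 1.62, and replicate 2 alone held 1, with 2.97. At Cd44, replicate 1 alone held 5 and replicate 2 alone 2, with signals from 1.66 to 3.40. Both single-library regions of Cd69 between 22.7 and 23.6 kb upstream had most of the 300 bases around the summit marked as repeats in the assembly, 87.7% and 94.3%. The median of shared distal regions was 8.33%. Such shares were not particular to these regions. Among shared Cd69 regions, the one 40.5 kb downstream had 81.0% and the one 29.4 kb downstream 78.0%. The other single-library region of Cd69 had 5.00%, and those of Cd44 had from 0% to 34.3%.

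Accessible regions also lay close to the windows on their outer side. Just outside the Cd69 window, regions lay 407 bp beyond the upstream edge, with 6.97 in replicate 1 and 9.09 in replicate 2, and 487 bp beyond the downstream edge, with 3.39 and 3.32. Just inside were the regions with 4.31 and 4.85 and with 4.98 and 4.14. At Cd44 the region 546 bp beyond the downstream edge had 5.72 and 5.30, and that 3468 bp beyond the upstream edge was in replicate 1 alone, with 3.42. Just inside were regions with 5.53 and 6.09 and with 12.7 and 12.6.

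The letters of transcription factor sites were counted in each region beside all regions of the same kind. The AP-1 letters TGACTCA, bound by Fos, Jun and BATF proteins downstream of the antigen receptor, were within 150 bp of the summit in 7 of 16 distal regions at Cd44 and in 2 of 19 at Cd69. All shared distal regions had them in 27.0%. In the sequences above, the strongest Cd44 region has TGACTCA at bases 56 to 62 and again at bases 106 to 112, and the intron 14 region has it at bases 114 to 120. Neither of the printed upstream Cd69 regions has it. The 2 Cd69 matches were in the weak region 29.6 kb upstream and in one of the regions inside 2310001H17Rik. Over whole regions in place of 300 bp, the letters were in 5 of 19 at Cd69 and 9 of 16 at Cd44, where they were in 35.7% of all. In the 100 bp around the summit they were in 1 of 19 and 6 of 16, against 18.8%.

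The ETS letters CCGGAA were in 1 of 19 Cd69 distal regions, none of 16 at Cd44 and 4.96% of all. The RUNX letters TGTGGT were in 6 of 19 and 4 of 16, against 30.1% of all, and the lymphoid ETS letters AGGAAG in 6 of 19 and 10 of 16, against 41.6%. The E-box CAGCTG was in 6 of 19 and 2 of 16, against 18.6%, and the E-box CAGGTG in 7 of 19 and 2 of 16, against 21.9%. The GATA letters AGATAA were in 6 of 19 and 7 of 16, against 14.0%, and the NFAT letters TGGAAA in 7 of 19 and 3 of 16, against 29.9%. The window moved several of these counts. In the 100 bp around the summit the GATA letters were in 4 of 19 and 0 of 16, against 4.06% of all, so the Cd44 matches all lay farther from the summit. Over whole regions the GATA letters were in 13 of 19 and 8 of 16, against 31.9%. Most 300 bp distal windows at both genes had a GC content below the 47.3% median of shared distal regions. The lowest was 28.0% at Cd69 and 37.3% at Cd44, and what part this has in the counts was not tested. The NFAT letters were in 5 of 19 and 2 of 16 within 100 bp, against 11.3%, and in 11 of 19 and 8 of 16 whole regions, against 53.4%. The RUNX letters were in 8 of 19 and 10 of 16 whole regions, against 52.0%. Their counts in the 300 bp windows were close to the share of all regions at both genes.

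The other letters were in at most 3 distal regions of each gene, and in at most 12.7% of all. TTCNNNGAA of STAT factors was in 3 of 19 distal regions at Cd69 and 2 of 16 at Cd44, against 12.7% of all, and CTTTGAT of TCF and LEF factors in 1 of each, against 6.01%. The GC box GGGCGG was in 1 of 19 and 0 of 16, against 9.66%, and the CTCF letters in 1 of 19 and 0 of 16, against 6.60%. No distal region of either gene had the remaining letters in its window. These were TGACGTCA of CREB factors (0.543% of all), GGGA and TTTCC with any base between them of NF-kB (1.35%), CCACACCC of KLF factors (3.33%) and GCGTGGGCG of EGR factors (0.163%). The last was a composite of AP-1 and IRF sites, TGANTCA and GAAA with 4 bases between them (0.829%). No match says only that these letters are not in this window. The composite contains AP-1 letters, so its matches can overlap those of AP-1. A match is a description of the letters in the window and not a bound site.

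At the Cd69 promoter, several letters lie close together upstream of the 5′ end. In the sequence above, TTCTGGGAA of the STAT letters at bases 93 to 101 overlaps an NF-kB match on the other strand at 98 to 107, which is 144 to 153 bp upstream of the 5′ end. GATA letters follow at 110 to 115, AGGAAG at 116 to 121 and RUNX letters at 179 to 184, all on the other strand. The NF-kB match runs across the edge of the 300 bp around the summit and so was not counted, and 0.535% of all shared promoter regions have these letters in their own 300 bp. In its 300 bp the Cd69 promoter had the AGGAAG, RUNX and GATA letters, which 31.9%, 12.6% and 4.31% of shared promoter regions hold. The printed Cd44 promoter has 1 match, AGGAAG at bases 57 to 62, which lies outside the 300 bp around its summit. Those 300 bp hold the RUNX, NFAT and GC box letters, of which those of NFAT were in 13.5% and the GC box in 64.8% of shared promoter regions.

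Other genes give a frame for the pair. Of 16 surface proteins whose level changes on T-cell activation, Cd69 and Cd44 included, 14 had a promoter region in both libraries (87.5%, against 62.8% of all genes). Pdcd1, the inhibitory receptor PD-1, had none, and Ly6a had one in replicate 1 alone. In distal regions Cd69, with 19, came level with Cd5 after Ctla4 with 21 and Icos with 20, which are neighbours on chromosome 1. Il2ra had 18, Cd40lg 17 and Cd44 16. The median promoter signal of the list was 5.88, below the 11.2 of all genes with a promoter region, and the median number of distal regions was 10.5, above the 4 of all genes. By promoter signal the order was different. Tfrc, the transferrin receptor, had 13.8 in replicate 1 and 13.5 in replicate 2 and Cd38, an ectoenzyme, 11.4 and 10.7, and Cd44 came next. The values of these 3 genes did not overlap, while the range of Cd69 met that of Il2ra, at 6.70 and 6.33.

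**Figure D5:**
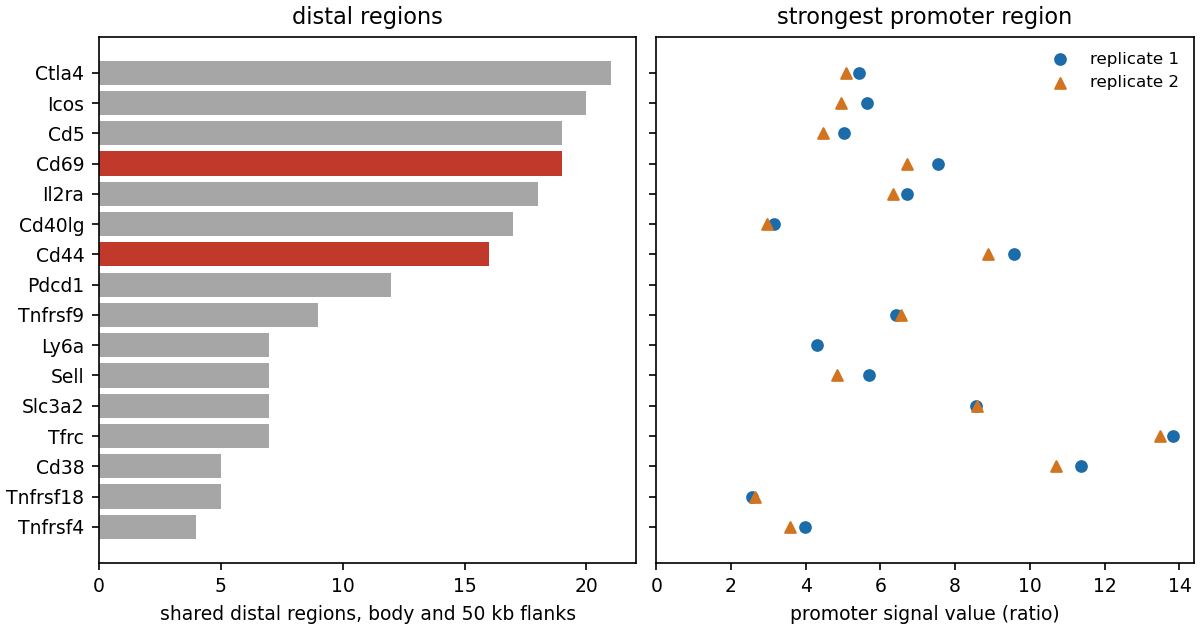
For 16 genes of surface proteins that change on T-cell activation (vertical), the number of shared distal regions in the gene body and 50 kb flanks (left) and the signal value (a ratio) of the strongest promoter region in replicate 1 (blue circles) and replicate 2 (orange triangles) (right). Cd69 and Cd44 (red bars) are among the 7 genes with 16 or more distal regions; Tfrc has the strongest promoter, and Pdcd1 has no promoter point.

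The list around CD69 held 16 genes: described partners and ligands, signalling genes, other sphingosine 1-phosphate receptors and Klf2. Of these, 13 had a promoter region in both libraries (81.25%, against 62.8% of all genes). S1pr1, whose product CD69 removes from the surface, had a promoter signal of 7.41 in replicate 1 and 7.37 in replicate 2 and 15 distal regions. Klf2, a factor that drives S1pr1, had 10.5 and 9.60, and Myl12a, one of the myosin light chains described as ligands, had the strongest promoter at 13.0 and 12.5. The receptor gene S1pr5 and the genes S100a8 and S100a9 of a myeloid ligand complex had none.

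Of 13 genes of the hyaluronan system and other CD44 ligands, 8 had a promoter region in both libraries (61.5%, close to the 62.8% of all genes). Cemip2, which encodes a hyaluronidase of the cell surface, led with 16.04 in replicate 1 and 14.0 in replicate 2, and Hmmr, another hyaluronan receptor, had 14.7 and 14.2. The synthases Has1 and Has2 had no promoter region, nor had Hyal1 and the endothelial receptors Lyve1 and Stab2, while the synthase Has3 had 6.90 and 7.24. Of 14 genes for cytoskeletal linkers, signalling partners and proteases of CD44, 13 had one (92.9%, against 62.8% of all genes). The scaffold Iqgap1 led with 15.8 and 15.1, the sheddase Adam17 had 14.6 and 13.0, and Mmp9 had one in replicate 1 alone, at 2.01. All 10 genes for splicing factors described for CD44 or CD45 had one, against 62.8% of all genes. Tra2a was the strongest at 12.9 and 12.1 and Hnrnpll next at 12.0 and 11.3. Esrp1 and Esrp2, which set the variant exons in epithelia, had weaker ones at 3.53 and 4.46 and at 5.01 and 4.99.

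Among C-type lectin genes of the Clec2 and Klrb1 families and Cd69, 7 of 12 genes had a promoter region in both libraries. This was 58.3%, against 62.8% of all genes. Clec2d, the protein-coding neighbour downstream of Cd69 and the ligand gene of an NK receptor, had a stronger promoter than Cd69, at 11.3 in replicate 1 and 10.6 in replicate 2. Klrb1b, which encodes the receptor for the Clec2d product, had 7.61 and 9.34. Clec2e, Clec2g and Klrb1 had no promoter region. All but Clec2l lie in the natural killer gene complex on chromosome 6 with Cd69. Cd69 had the most distal regions of the list, and Clec2d followed with 13, some of which the windows of both genes share.

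The genes most like each member were found by promoter signal, number of distal regions and strongest distal signal, over 13168 genes and both libraries. For Cd69 these were Pag1, with 19 distal regions and promoter signals of 7.31 and 6.83, Camk4, with 21 distal regions, and Rasgrp1, with 18. For Cd44 they were Prr5l, with 17 distal regions and promoter signals of 9.56 and 8.84, Cab39, with 15, and Nfix, with 15. Likeness was the distance over the 3 measures on a log2 scale, each divided by its SD across genes, and was 0.0363 for Pag1 and 0.110 for Prr5l.

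Of 11 T-cell marker genes 9 had a promoter region in both libraries, where 62.8% of all protein-coding genes did. Cd8a had none, and neither had Cd247, the CD3 zeta chain, which had 18 distal regions. Of the other marker lists, 2 of 5 myeloid, 3 of 4 NK-cell and 0 of 3 hepatocyte markers had one in both. The B-cell genes Cd79a and Ms4a1, the myeloid genes Lyz2, Csf1r and Itgam and the NK-cell gene Ncr1 had none in either library. The factor genes Pax5, at 10.6 and 9.96, Ebf1, at 9.08 and 8.59, and Spi1, at 8.75 and 8.59, did. An open promoter does not show that a gene is transcribed, and what part other cells have in the regions of Cd69 and Cd44 was not tested.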

How the data were processed

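The data were peak lists of 2 ATAC-seq libraries. Per the labels and deposited notes, peaks were called by the authors on each library's own alignment to mm10, in narrowPeak format. No source used here gives the aligner, the caller, their settings or the depth, and weak regions may be missing for lack of reads. Whether reads were shifted for the transposase could not be checked. The deposited signal value is a ratio (fold enrichment, as read from its values), with no scaling between libraries stated. The deposited −log10 p and −log10 q and the authors' score, which follows the −log10 q, are the caller's own.

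Peaks on the standard chromosomes (78016 in replicate 1 and 74653 in replicate 2) were used, and overlapping peaks of the libraries (at least 1 bp) were merged. Starts were 54361 of protein-coding transcripts in GENCODE mouse release 21. The genome was indexed with samtools 1.23.1, and counting used Python 3.11.15 and NumPy 2.4.6. No test was possible with 1 group of 2 libraries that share a donor record, so counts stand beside the same counts over all genes or regions. Members, gene lists, letters and the rule for named genes (members, window neighbours, the strongest and the missing promoters of each list, and the 3 most like genes) were chosen with earlier results of these data known. Single genes of the lists beyond the rule, and the block in 2310001H17Rik, were chosen after their values were seen. Clec2f and Clec2j, annotated as pseudogenes, were left out of their list. The code was tested on simulated data. The letters of the strongest Cd69 region and of the Cd44 intron 4 region, and the count over the B-cell markers, are not reported here.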

Additional observations from a re-analysis of the deposited data

How the results depend on the processing

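With either library left out, the promoter signal is that of the other, 6.70 or 7.54 at Cd69 and 8.88 or 9.56 at Cd44. With 2 libraries such a move is always less than the spread between them, so it is no check. Distal counts then ran from 20 to 21 at Cd69 and from 18 to 21 at Cd44, as presence in 1 library is then enough. They fell to 5 at Cd69 and 7 at Cd44 with the 50000 strongest regions per library, which keeps fewer regions. With flanks of 100 kb they were 29 and 30 and with the gene body alone 2 and 8. Flanks of 20 kb gave 5 at Cd69 and, within 1.5 times the count, 11 at Cd44. Promoter regions in the window numbered 3 at Cd69 and 2 at Cd44 with flanks of 100 kb. At Cd69 they were 2 with a promoter distance of 2000 bp and 5 with the starts of all annotated genes, noncoding ones included. The other 37 values for the pair and all 24 for the gene lists stayed within 1.5 times the count or within the spread between libraries. Both numbers include the values with a library left out, and the promoter signals among these could not do otherwise. Of 68 counts of letters, 21 were more than 1.5 times higher in whole regions and 16 more than 1.5 times lower in 100 bp windows, counts that moved to or from 0 included, as the windows are longer or shorter. No paired analysis was possible because there is 1 group. Depth is unknown and limits which weak regions were called.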
